A study of Mus musculus with 18 samples.

Results

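The regions described here are 2967 binding sites of the transcription factor PU.1 that were occupied in open chromatin on day 0 and for which no PU.1 peak was listed on day 5. They were taken from the 14064 peaks that the authors merged over both day 0 replicates, of which they are 21.1%. A peak was a member when it overlapped, by at least 1 base, no peak of either day 5 replicate list or of the merged day 5 list, and overlapped a DNase hypersensitive site of the list that both day 0 replicates share. The members were thus chosen by their PU.1 peak calls on both days and by their day 0 openness, which are given only as a description. The cells were MEL, an established mouse erythroleukemia line that starts to mature along the red cell path when dimethyl sulfoxide (DMSO) is added. Day 0 was untreated and day 5 followed culture in 2% DMSO, with 2 libraries per day, labelled as biological replicates, for ChIP-seq of PU.1, DNase-seq, RNA-seq and ChIA-PET on RNA polymerase II. Nothing states that the replicates came from separate clones, and all of them are the same transformed line.

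PU.1, encoded by Sfpi1, is a factor of the ETS family that drives macrophage, granulocyte and B cell genes. In MEL cells the gene is switched on by the integration of a retrovirus, and its product binds GATA1 and holds back red cell maturation. DNase I cuts DNA that is not wrapped in nucleosomes, so a hypersensitive site marks an accessible stretch. A footprint is a short protected gap inside such a site, where a bound protein shields the DNA. ChIA-PET joins DNA ends held in the same immunoprecipitate, and an edge lists 2 regions, called vertices, that were found together.

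Among the other day 0 peaks, 5571 were in an open site and were found in a day 5 replicate list but not in the merged one, 2964 were in an open site and in both merged lists, and 2562 lay outside the shared day 0 DNase sites. The first and second of these groups serve as comparisons and are called the replicate-list peaks and the both-day peaks. Without the second day 5 PU.1 replicate the rule would take 5720 peaks, and without the first 3215, so the length of that library's list, 18614 peaks against 10714, bears on who is a member. The day 0 lists held 34590 and 46077 peaks and the merged day 5 list 3530. The whole set of 4191 day 0 peaks with no day 5 peak holds another 1224 that were not in an open site.

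The lost peaks were weak on day 0. Their merged score, which tracks the caller's −log10 p, had a median of 20.8 and ran from 3.54 to 119, against a median of 33.4 in the replicate-list peaks and 86.0 in the both-day peaks. Median fold enrichment over background was 9.77 in replicate 1 and 9.82 in replicate 2, against 13.4 and 13.5, and 25.7 and 25.0. When all merged day 0 peaks were ranked by score, 43.2% of the lowest of 10 equal groups and 0.213% of the highest (3 of 1407) were members. These values were part of how the members were chosen.

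The rule has 2 edges. On the DNase side, 63.0% of members lay wholly inside their day 0 site, 32 shared fewer than 50 bases with it and the smallest overlap was 4 bases, while 35 peaks without a day 5 peak missed the rule with a day 0 site within 100 bases. On the PU.1 side, 6 members had a day 5 peak within 100 bases and 242 within 1000 bases, and 1 open peak was left out by an overlap of under 50 bases. That edge is not sharp by the share of a peak that is covered. Where only a cover of at least 50% of the day 0 peak counted as an overlap, the rule took 6877 peaks. The median distance from a member to the nearest day 5 peak was 14.5 kb. Members were spread over every chromosome except Y, and the share of open day 0 peaks that were lost ran from 18.3% on chromosome 19 to 31.4% on chromosome 13. Most had no other member nearby: 310 of them, 10.4%, had another member within 10 kb. Of the replicate-list and both-day peaks, 19.8% and 12.1% had another peak of their own group within 10 kb. These shares leave out peaks of the other groups. They also depend on group size, 5571 for the replicate-list peaks against 2967 members, so they do not measure how isolated a peak was.

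Most lost peaks sat in chromatin whose DNase score was lower on day 5. Each member was given the score of its whole day 0 site in each DNase library, and a site not listed in a library was set to 2, the lowest score of the lists, so that its fall is a lower bound. In the day 0 replicates the median score was 30.8 and 34.6, and in those of day 5 it was 4.65 and 4.26. Both day 5 medians lay below both day 0 medians. The median log2 score was 2.87 units lower on day 5. No test is given for this difference, since being listed in both day 0 libraries chose the members.

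Sites that were open on day 0 had lower DNase scores on day 5 in general, and the members' fall has to be read against that. Such sites, the members included, were taken because both day 0 libraries listed them, so a lower day 5 score is in part set by that choice. Over all 147639 shared day 0 sites the median change of the log2 score, the mean of the day 5 libraries minus the mean of the day 0 libraries, was −1.06. It was −1.99 at the members, which is 0.93 log2 units further down. The replicate-list peaks had a median change of −1.65, the both-day peaks −1.68 and sites with no PU.1 peak in any list −0.97. Over the 310860 sites of the list consolidated over both days, which were not chosen by day 0 alone, the median change was 0.20, with the member sites of that list at −2.00. The day 5 replicate lists were longer, with 617606 and 518066 sites against 190924 and 252611, so more sites were listed on day 5 while scores at the shared day 0 sites were lower. No source used here says how the score was scaled to depth, and the part of scaling in the common shift was not tested. Scores centred on each library's median put the members at −0.62 and all sites at 0.32, and quantile normalization put them at −0.64 and 0.11. These scalings fix the overall level of each library and so cannot show a common fall, and under both the members' median lay below that of all sites.

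**Figure D1:**
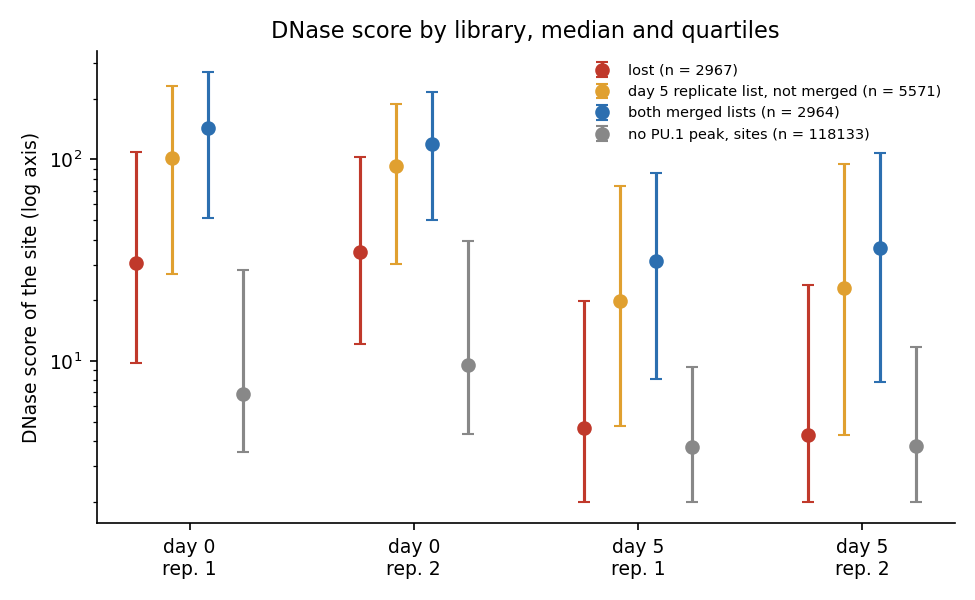
DNase score (log axis) in each of the 4 libraries, with points at the median and bars from the first to the third quartile. Lost peaks (n = 2967) have medians of 30.8 and 34.6 on day 0 and 4.65 and 4.26 on day 5, below both other PU.1 groups in each library and above the sites with no PU.1 peak.

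The limma fit gives the same contrast for every site, and at the members it too describes values that the rule used on day 0. Fitted over all 147639 sites with Benjamini-Hochberg adjustment, it called none of the 2948 day 0 sites that hold a member, and 0% of all sites, in either direction at an adjusted p of 0.05. The lowest adjusted p was 0.0504, reached by 335 member sites. This count depends on the setting: with a floor of 1 for unlisted sites 62.4% of member sites and 32.3% of all sites were lower, and with a block for the replicate number 47.7% and 18.0%. Without day 0 replicate 1 the shares were 35.8% and 26.6%, without day 0 replicate 2 they were 34.1% and 24.8%, and without either day 5 replicate they were 0%. At an unadjusted p under 0.05, 2375 of the 2948 member sites were lower and 1 was higher on day 5, against 67448 and 915 of all 147639 sites. At sites of replicate-list peaks 4549 of 5412 were lower, and at sites of both-day peaks 2628 of 2907. All these sites were chosen as listed in both day 0 libraries, so the counts are a description and do not test for a fall. Both day 5 scores lay below both day 0 scores at 94.2% of member sites (2777 of 2948) and at 74.1% of all sites. That share was 95.8% at sites of replicate-list peaks and 98.0% at sites of both-day peaks, so a lower score on day 5 is not particular to lost peaks. The median standard error of the log2 change at a member site was 0.49. In its check on simulated data this fit missed most changes, but only 50 of 147639 sites were changed at each size. The check therefore does not measure how many changes were missed here. Since the count of 0 moved with the setting, it says little about how many sites changed.

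Slightly over 1 in 2 of the lost peaks still lay in open chromatin on day 5. Of the 2967 members, 1519 overlapped a site shared by both day 5 replicates, or 51.2% (Wilson 95% interval 49.4 to 53.0). This interval and those that follow cover counting error over regions only. In the replicate-list peaks the share was 77.5% (76.4 to 78.6) and in the both-day peaks 87.9% (86.6 to 89.0). Counted by site, 59.3% of all day 0 sites and 54.9% of those with no PU.1 peak overlapped one. These 2 shares count whole sites, so they cannot be set directly beside the members' 51.2%, which counts peaks. Sites with a member are counted by bin of day 0 score below. Counted by single library, 65.8% of members were listed in day 5 replicate 1 and 61.9% in replicate 2. Both replicates listed 1550 members, 1 of them listed 689 and neither listed 728.

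These 3 states differed in how open the site had been. The 1550 members listed in both day 5 replicates had median day 0 scores of 81.2 and 75.3, and 12.4 and 14.1 on day 5. The 728 listed in neither had 9.78 and 12.1 on day 0, and both of their day 5 medians lay at the floor of 2. Their sites were also narrower, with a median width of 335.5 bases against 1240. PU.1 score went slightly the other way, with a median of 19.8 in members that stayed listed and 22.0 in those listed in neither, although these values lie within the range that chose the members.

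Because the groups differ so much in day 0 DNase score, they were compared in 5 bins, cut at the members' own quintiles of the mean log2 day 0 score of both replicates (geometric means of 8.84, 21.1, 48.9 and 129). These bins were chosen after seeing the data. From the lowest bin to the highest, 13.1%, 25.3%, 51.4%, 77.7% and 88.4% of members were open on day 5. The replicate-list peaks had 21.0%, 35.7%, 67.5%, 91.5% and 96.9%, and the both-day peaks 22.4%, 43.2%, 75.7%, 95.8% and 99.3%. Members were below both groups in each of the 5 bins, and the intervals overlapped only between members and both-day peaks in the lowest bin. Sites differ within a bin, and no test was made across peaks.

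The position of the peak in its site moved with this gap. Member peaks were covered in full by their site in 63.0% of cases, the replicate-list peaks in 76.6% and the both-day peaks in 81.1%. Among peaks covered in full, 67.6% of members (65.4 to 69.7), 89.6% of replicate-list peaks (88.6 to 90.5) and 95.8% of both-day peaks (94.9 to 96.5) were open on day 5. Members also had narrower sites, with a median of 652 bases against 1329 and 1565, and the part of site width in the gap was not tested. When whole sites instead of peaks were counted, sites with a member were open in 14.8%, 31.9%, 62.3%, 90.0% and 100% of cases from the lowest bin to the highest. Sites with no PU.1 peak in any list had 33.6%, 58.9%, 74.1%, 95.3% and 99.7%. The share was lower at sites with a lost peak in each of the 4 lower bins, and in the highest bin nearly every site of both kinds was listed.

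The size of the fall followed the day 0 score in an uneven way. The median change of the log2 score in members was −1.24, −2.34, −3.06, −2.73 and −1.14 from the lowest bin to the highest. The lowest bin is limited by the floor, and the members of the highest bin changed almost as much as all sites did, with 0.08 log2 units of difference between their median and that of all sites (−1.14 against −1.06). The both-day peaks had −1.31, −2.28, −2.55, −2.25 and −1.24, and sites with no PU.1 peak −0.60, −1.74, −1.88, −1.19 and −0.98. The members stood below the both-day peaks in the middle 3 bins, and furthest in the third (−3.06 against −2.55).

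To show each library, the difference in median log2 score between members and another group was averaged over the 5 bins in each library. Against the both-day peaks it stood at −0.16 and −0.07 in the day 0 libraries and at −0.35 and −0.25 in those of day 5, a change of −0.19. Against the replicate-list peaks it was −0.07 and −0.03, then −0.28 and −0.27, a change of −0.23. Member sites against sites with no PU.1 peak stood at 0.18 and 0.10 on day 0 and at −0.58 and −0.81 on day 5, a change of −0.83. The bins were cut on the day 0 scores of the same libraries, which holds the day 0 differences near 0 and leaves those of day 5 free, so these values are a description and carry no test.

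**Figure D2:**
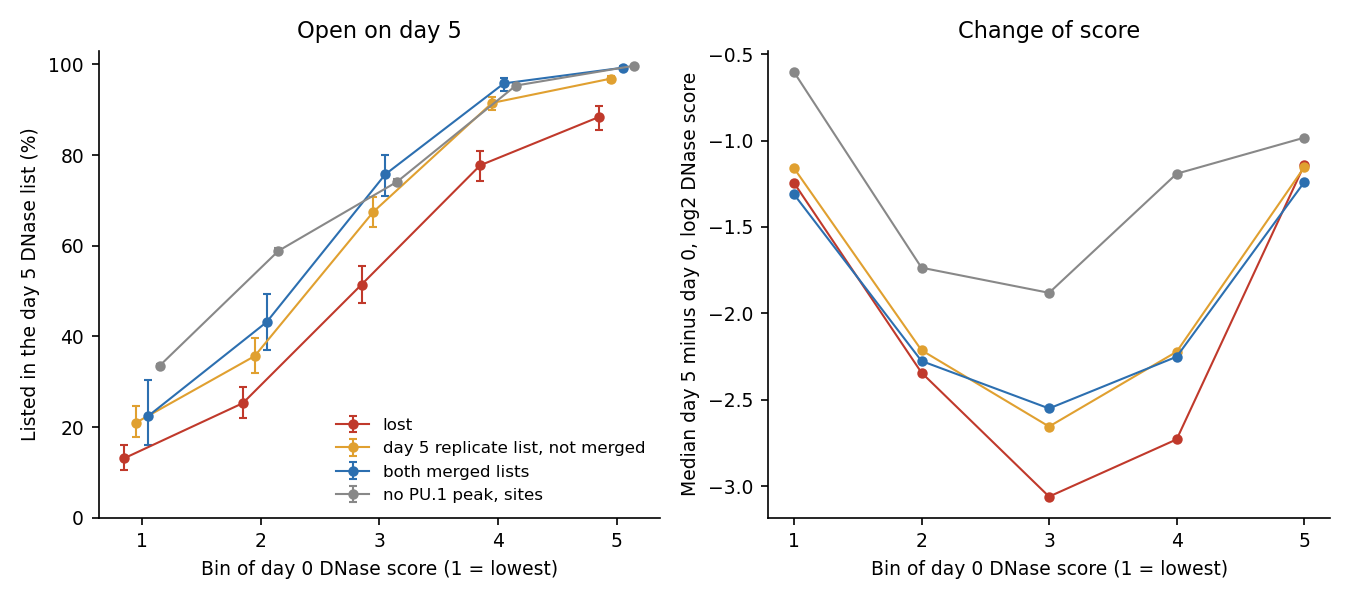
Left, share of regions in the shared day 5 DNase list by bin of day 0 DNase score, with Wilson 95% intervals; right, median change of the log2 DNase score in the same bins. The lost peaks run from 13.1% to 88.4% open on day 5, below the other PU.1 groups in every bin, and their change is most negative in the third bin (−3.06). The group with no PU.1 peak is counted by site.

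A minority of members shared their DNase site with a PU.1 peak of another group. There were 170 of these, and 82.4% of them were open on day 5 (75.9 to 87.3), against 49.3% of the 2797 whose site held no other group (47.5 to 51.2). The median change at sites with lost peaks alone was −2.05.

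Single regions show the range of outcomes, with coordinates in mm9 as the authors gave them. The member with the highest PU.1 score, chr13:114590485-114590891, had a fold enrichment of 41.1 and 35.3 on day 0. Its DNase score went from 36.3 and 40.2 in the day 0 libraries to 3.66 and 2.86 in those of day 5. Its day 0 footprint had a score of −21.8, and no day 5 footprint overlapped it. The next, chr1:80643193-80643531, had DNase scores of 69.0 and 44.7 on day 0 and was in neither day 5 list. Accessibility was lower on day 5 at both of them, and the first was still listed as open in both day 5 libraries. The fourth, chr1:160148033-160148785, had scores of 318 and 202 on day 0, 12.2 and 7.39 on day 5, and held 7 day 0 footprints and no day 5 footprint. The other 2 of the 5 highest-scoring members, chr14:27446156-27446489 and chr15:86194273-86194714, lay in weak sites with scores of 11.6 to 20.0 on day 0 and no footprint.

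With unlisted sites set to 2, the largest fall was at the site of chr3:96437991-96438205, from 95.7 and 302 on day 0 to 3.33 and 2.33 on day 5, a log2 change of −5.93 (SE 0.68, limma adjusted p = 0.0504). The day 0 libraries differ widely there, and the region was picked for the size of its fall, so its SE and p only describe it. With a floor of 1 it was behind chr1:152182341-152182672, which neither day 5 replicate listed and whose change was then −6.46, and behind the next region at −5.99. A more even case was chr10:5861221-5861545, with 106 and 124 on day 0, 3.25 in day 5 replicate 1 and no listing in replicate 2. The site of chr3:95757897-95758426 fell from 227 and 284 to 2.81 and 9.15. The peak itself overlapped no day 5 site, since the scores are those of the whole day 0 site, which is wider than the peak.

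Few members had a higher score on day 5. Only 27 of 2967, 0.910%, had a log2 change above 0, against 0.772% of replicate-list peaks, 0.439% of both-day peaks and 9.76% of all sites. The largest, chr1:94388457-94388689, went from 6.06 and 3.19 to 16.7 and 9.57, a log2 change of 1.52 (SE 0.68, limma adjusted p = 0.146). This region too was picked for the size of its change, so its SE and p only describe it. The next in size, chr11:74740789-74741103 and chr7:36120001-36120482, rest on day 0 libraries that disagree, with 12.2 against 211 and 17.2 against 379, and without day 0 replicate 1 their change was −0.60 and −0.93.

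Footprints were found in fewer of the lost peaks than of the other groups on both days. On day 0, 1014 of the 2967 members overlapped a footprint (34.2%, 32.5 to 35.9), against 60.5% of replicate-list peaks and 78.9% of both-day peaks. On day 5, 403 members did (13.6%, 12.4 to 14.9), against 39.7% and 57.0%. The footprint lists were of like length, 155765 on day 0 and 158217 on day 5. There is 1 list per day, so the difference between days has no replicate check. It is also in part set by the choice of peaks that were open on day 0.

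Footprint loss went mostly one way. Members and both comparison groups were chosen as open on day 0, with no such demand on day 5, which in part sets this direction. Of the 1448 members not open on day 5, 201 had a day 0 footprint and 3 a day 5 footprint. A footprint was found on day 0 only in 634 members, on both days in 380 and on day 5 only in 23, while 1930 had none on either day. The comparison groups had the same direction: a footprint on day 0 only was found in 21.4% of members, 22.3% of replicate-list peaks and 22.8% of both-day peaks, and on day 5 only in 0.775%, 1.54% and 0.911%. Of the 1757 footprints inside members on day 0, 624 were overlapped by a day 5 footprint, or 35.5% (33.3 to 37.8). In the replicate-list peaks 59.1% were overlapped, in the both-day peaks 61.8% and over all day 0 footprints 74.3%. The best score of a peak was taken as its most negative one, although no source used here defines the score. Where a member had footprints on both days, this best score had a median of −75.0 on day 0 and −42.5 on day 5. The replicate-list peaks went from −93.0 to −61.8 and the both-day peaks from −103 to −65.1. In members it was less negative on day 5 in 263 of those 380 members and more negative in 115.

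Loss of the footprint and loss of the open site were partly separate. Of the 1014 members with a day 0 footprint, 80.2% (77.6 to 82.5) lay in an open site on day 5, against 36.1% (34.0 to 38.3) of the 1953 without one. These shares were 93.5% and 53.0% in the replicate-list peaks, and 95.6% and 58.9% in the both-day peaks. From the lowest to the highest bin of day 0 DNase score, members with a day 0 footprint went from 0.337% to 62.0%. Those open on day 5 went from 13.1% to 88.4%, and the part of that score in the contrast was not tested. Of the 813 members that had a day 0 footprint and were open on day 5, 379 had a day 5 footprint (46.6%, 43.2 to 50.1). In the same situation 67.2% of replicate-list peaks and 74.1% of both-day peaks did. Of the 201 that had a footprint and were not open on day 5, 1 kept one.

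Peak width and DNase score both move with footprint counts. Member peaks were 296 bases wide at the median, replicate-list peaks 337 and both-day peaks 398, and a wider peak can overlap more footprints. In the highest bin of day 0 DNase score, 62.0% of members, 84.8% of replicate-list peaks and 95.5% of both-day peaks had a day 0 footprint. In the same bin 42.6%, 70.6% and 85.8% had one on day 5. In the third bin the day 0 shares were 36.4%, 38.8% and 53.3%, and the day 5 shares 4.72%, 7.28% and 12.7%. The part of peak width in these gaps was not tested.

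The summits of lost peaks lay less often in a footprint, and further from the nearest one. The summit, the base of highest PU.1 signal in the replicate 1 list, lay inside a day 0 footprint in 10.3% of members, 24.7% of replicate-list peaks and 44.2% of both-day peaks. On day 5 the same positions lay in a footprint in 2.76%, 12.5% and 21.3%. Among peaks with a day 0 footprint, the median distance from the summit to the centre of the nearest one was 30.2 bases in members, 23.5 in replicate-list peaks and 17.5 in both-day peaks. The summit shares count all peaks, with or without a footprint. Day 0 footprints were also narrower in members, with a median of 25 bases against 32 and 34. Peaks with one held fewer of them, at the median 1 against 2 and 2. The part of footprint width and number in these gaps was not tested. In the highest DNase bin each of the 579 member sites held a footprint somewhere in the site on day 0, while 62.0% of the member peaks in that bin overlapped one. In that bin more than 1 in 3 lost peaks thus lay beside the footprinted part of their site.

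The most negative footprint score with no day 5 counterpart was in chr11:115830018-115830313, at −238 on day 0. DNase scores there were 125 and 71.7 on day 0 and 2.87 and 3.82 on day 5. At chr17:11981261-11981821, 7 day 0 footprints, the best at −149, had no day 5 counterpart, while the site went from 240 and 207 to 10.2 and 13.4 and stayed listed in both day 5 replicates. At chr17:5730607-5730933 the score was still 25.5 and 16.2 on day 5, from 286 and 241, and none of its 4 footprints had a counterpart. These 3 regions hold a range of outcomes. The peak of the first overlapped a site of only 1 day 5 replicate, and the site of the last was well above the floor in both.

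**Figure D3:**
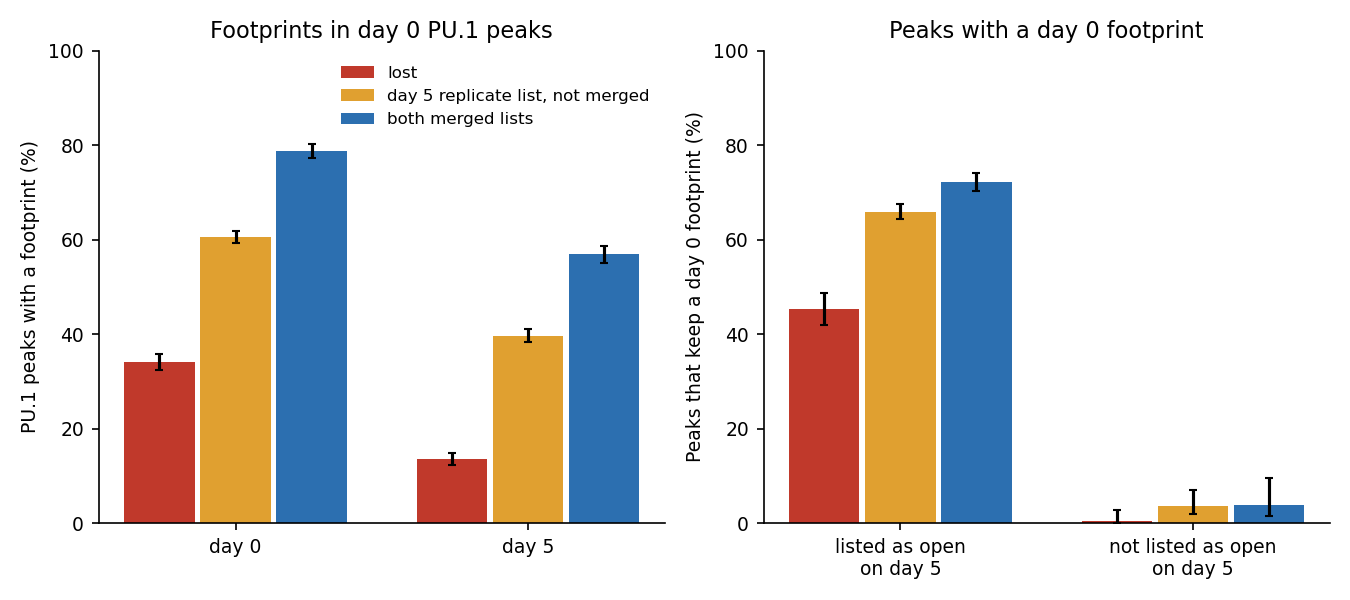
Left, share of PU.1 peaks that overlap a footprint on each day; right, among peaks with a day 0 footprint, the share in which a day 5 footprint overlaps it, split by whether the peak was in the shared day 5 DNase list. Bars carry Wilson 95% intervals; lost peaks go from 34.2% to 13.6%, and 45.3% of those still open keep a day 0 footprint, the lowest share of the 3 groups.

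With 1 kb vertices few lost peaks took part in long-range contacts, in like numbers on both days, and with 3 kb vertices more did, with fewer on day 5 than on day 0. A 1 kb vertex held 2601 of the 2967 members. On day 0, 225 members (7.58%, 6.68 to 8.59) lay in a vertex with an edge, and on day 5 211 did (7.11%, 6.24 to 8.09). The replicate-list peaks had 15.7% and 15.9%, and the both-day peaks 17.7% and 18.4%. Counted by vertex, 8.38% and 8.03% of vertices with a member had an edge, against 3.90% and 4.01% of all 130283 vertices. By member, 139 had an edge on both days, 86 on day 0 only and 72 on day 5 only. Edges come as 1 list per day, with no replicate check.

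The gap to the other PU.1 groups was small within bins of DNase score. In the highest bin, 29.5% of members (25.9 to 33.2), 32.8% of replicate-list peaks (30.9 to 34.7) and 31.0% of both-day peaks (28.7 to 33.4) had a day 0 edge, and the intervals overlapped. On day 5 the shares were 28.5%, 33.8% and 32.2%. In the second highest bin they were 5.90%, 7.93% and 7.51% on day 0. Of the 225 members with a day 0 edge, 175 were in the highest bin.

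**Figure D4:**
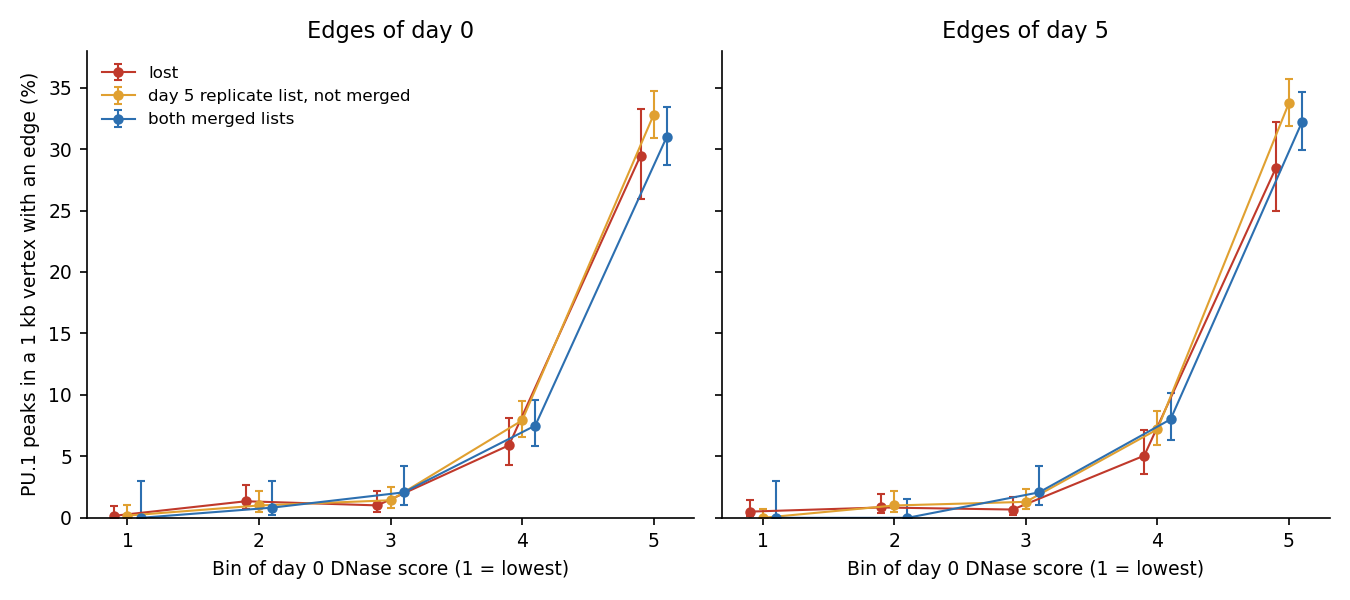
Share of PU.1 peaks in a 1 kb vertex with an edge, by bin of day 0 DNase score, on day 0 (left) and day 5 (right), with Wilson 95% intervals. In the highest bin lost peaks stand at 29.5% and 28.5%, and the day 0 intervals of the 3 groups overlap.

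The edges themselves changed more than their number. Vertices with a member had 476 edges on day 0 and 438 on day 5, and 195 were in both lists, 41.0% of the day 0 edges (36.6 to 45.4). Over all vertices 37.8% of day 0 edges were in both lists, and at both-day peaks 40.0%. Edges in both lists were shorter, with a median of 36.1 kb, than those on day 0 alone, with 78.2 kb. The same order held over all vertices, with 33.7 and 59.5 kb. With 3 kb vertices, 24.4% of members had an edge on day 0 and 19.9% on day 5. Counted by vertex, those with a member went from 26.1% to 21.4% and all vertices from 12.4% to 10.5%. The count of members thus fell there along with that of the whole list.

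The member vertices with the most day 0 edges kept a high DNase score. They were picked by their day 0 count, so their lower counts on day 5 are in part set by that choice. The vertex of chr13:23676255-23676527 had 14 edges on day 0 and 8 on day 5, with DNase scores of 359 and 312, then 223 and 260. At chr3:95086718-95087066 there were 13 edges and then 8, and 6 and 5 footprints in the peak, with scores of 838 and 652, then 300 and 399. That of chr19:46838486-46838824 went from 12 to 5 edges, and of chr11:87570065-87570295 from 11 to 7. The fifth, chr19:29595560-29595845, had 11 and then 10. The sites at chr3:95086718-95087066, chr19:46838486-46838824 and chr11:87570065-87570295 also hold a PU.1 peak of another group.

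The gene for PU.1 itself was lower on day 5. Sfpi1 had 55.4 and 101 FPKM on day 0 and 2.37 and 3.55 on day 5, so the groups did not overlap, and its log2 fold change on the log2(FPKM + 1) scale was −4.28 (SE 0.36, limma adjusted p = 0.00658). Over all 10736 genes tested, 7.81% were lower and 10.7% higher on day 5. Of 26 listed factors and partners of PU.1, 18 were tested, 5 fell and 1 rose. Of 45 listed myeloid genes known as PU.1 targets, 24 were tested, 10 fell and 2 rose. The median log2 fold change of the 24 was −0.73, against 0.15 over all genes tested. A gene could pass the filter of at least 1 FPKM in 2 libraries through its day 0 values alone, which favours a fall. Fcgr2b and Tyrobp, both among the 10 that fell, passed that way, with 0 FPKM in both day 5 libraries. So did Fcgr1, which was not called. These genes are part of the counts and of the median. The cells carried the red cell factors their label calls for on both days, with Gata1 at 279 and 209 FPKM on day 0 and 359 and 407 on day 5. The myeloid genes Lyz2, Mpo and Csf1r were listed at 0 in all 4 libraries. The 24 tested genes of that list each had at least 1 FPKM in at least 2 libraries, at widely differing levels. Btk, for 1, had 138 and 135 FPKM on day 0, and Prtn3 had 6.68 and 5.03.

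Among the factors that fell, Myb, which keeps blood progenitors dividing, went from 58.6 and 79.1 to 1.06 and 2.51 FPKM (limma adjusted p = 0.00552). Tal1, a partner of GATA1, rose from 22.9 and 23.4 to 140 and 120 FPKM (limma adjusted p = 0.00517). Of the targets, Coro1a, an actin-binding protein of white blood cells, fell from 38.7 and 41.2 to 3.32 and 5.01 FPKM, and Fcgr3, an Fc receptor, from 13.5 and 8.08 to 0.614 and 1.26. Fcgr2b, an inhibitory Fc receptor, had 6.38 and 4.60 FPKM on day 0 and was listed at 0 in both day 5 libraries. Lcp1, an actin-bundling protein, fell from 13.1 and 4.72 to 1.02 and 0.966 FPKM. Csf2rb, the shared beta chain of cytokine receptors, rose from 9.74 and 6.97 to 124 and 121 FPKM, and Plek, a protein kinase C substrate, from 153 and 116 to 348 and 338. Nr1h3, a sterol-sensing nuclear receptor, had 2.47 and 1.81, then 2.96 and 3.10 FPKM, and was not called (limma adjusted p = 0.428). The lists hold genes that rose as well as genes that fell, and none of them was tied to single lost peaks here. Leaving out any 1 RNA library, which leaves 1 day with a single library, left at most 11 genes lower and 2 higher, and none from the list. The fold changes kept their size, with Sfpi1 at −3.85 to −4.70 and Myb at −4.30 to −5.07.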

How the data were processed

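The members, gene lists and most tests were chosen with earlier results of these data known. PU.1 peaks of each replicate hold, as deposited by the authors, a −log10 p and a ratio, the fold enrichment. The submitters' processing notes name Bowtie 1.0.0, MACS2 2.0.10 and mm9 for this assay. The authors merged both replicates of a day into 1 list with a score per peak and an irreproducible discovery rate, a q-value, per the file headers. DNase sites, footprints and edges carry a score that the authors deposited, and no source used here defines it. For DNase-seq the submitters' processing notes name Bowtie, bedtools and mm9. The 1 kb vertices were built by the authors from DNase sites and polymerase II and cohesin peaks, per the labels. RNA values are FPKM per gene computed by the authors with Bowtie and mm9, per the submitters' processing notes. No source used here names the quantifier. None of these files gives read counts, so depth per library is unknown. Input controls were not analysed here.

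Overlaps were made with bedtools 2.31.1 (1 base). Per shared day 0 site and library the highest overlapping DNase score was taken, unlisted sites were set to 2, and log2 scores were compared between days with limma 3.58.1 in R 4.3.3 (trend, two-sided, no block) over 147639 sites. Genes with at least 1 FPKM in 2 libraries were tested the same way on log2(FPKM + 1), and genes or sites with a Benjamini-Hochberg adjusted p under 0.05 were called. Groups and replicate numbers came from sample titles. The p-values measure the spread between these libraries. Regions are not replicates, so shares carry Wilson 95% intervals and no p.

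Both fits were tested on simulated data. A first run with changes of 1 and 2 log2 units only recovered none of them at DNase sites, and changes of 4 and 6 were then added. The DNase fit still missed most changes below the largest size, while the RNA fit missed many of the smallest and nearly none of the others.

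Named regions were the 5 members first in each of PU.1 score, fall and rise of DNase score, day 0 footprint with no day 5 footprint, and day 0 edges. The text gives a selection of these 25. Named genes were Sfpi1, Fcgr2b, Nr1h3 and up to 6 called genes in each direction from the PU.1 list, ranked by size of change among those averaging 5 FPKM or more on 1 day. Gata1, Lyz2, Mpo, Csf1r, Btk, Prtn3, Tyrobp and Fcgr1 are outside that rule and were named after their values were seen. No mm9 genome or annotation was used, so no sequences of the regions and no genes near them are given.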

Additional observations from a re-analysis of the deposited data

How the results depend on the processing

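DNase calls at member sites (lower, with all sites lower and higher beside them) were 0 as reported, and 1841, 47620 and 166 with a floor of 1. They were 1406, 37381 and 636 among sites listed in all 4 libraries, and 1407, 26550 and 179 with the replicate block. Leaving out 1 library gave 0 to 1056 member sites lower and 0 to 2 higher, and 0 to 39239 of all sites lower and 0 to 474 higher. The cause was not tested. Median-centred scores, quantile normalization and the consolidated list also gave 0 calls. At regions with many edges, the log2 DNase change turned positive under median centring (0.90, 0.28, 0.28, 0.61 and 0.46) and in 3 under quantile normalization (0.51, 0.31 and 0.19). The rises at chr11:74740789-74741103 and chr7:36120001-36120482 became −0.60 and −0.93 without day 0 replicate 1, and 3.52 and 3.53 without day 0 replicate 2. Checks of pairing gave a correlation of 0.01 for DNase and 0.05 for RNA, which does not show whether same-numbered libraries belong together.

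The rule took 6877 peaks when at least 50% of the day 0 peak had to be covered for an overlap to count. It took 599 when only peaks at or above the median score were used, and 3215 to 5720 without 1 day 5 PU.1 replicate. Members open on day 5 made up 75.5% in either replicate list, 38.4% at 50% coverage, 42.2% with day 5 sites at or above the median score, 43.7% with the day 5 list shortened to the day 0 length, 49.3% without shared sites, 67.6% among peaks covered in full, and 61.9% to 65.8% without 1 replicate. Footprints at or below the median score were in 16.8% on day 0 and 7.08% on day 5. Edges were at 24.4% and 19.9% with 3 kb vertices, and 5.73% and 5.26% without shared vertices. The alternatives on list length, shared sites, full coverage and score bins were chosen after seeing the data.

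RNA calls (839 lower, 1150 higher) became 117 and 120 with no filter, with 1 listed gene lower, and the list had 5 genes higher under quantile normalization. Without 1 RNA library 0 to 11 genes were lower and 0 to 2 higher, and 0 of the list in either direction. The fitted replicate block gave 809 and 988.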
